A study of Mus musculus with 8 samples.

Results

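The unfolded-protein and integrated stress genes described here are Hspa5, Hsp90b1, Calr, Pdia3, Pdia6, Xbp1, Herpud1, Atf4, Ddit3 and Trib3. They were chosen by symbol, and all 10 were found among the 17580 gene identifiers of the deposited library tables. Of these, 9 are also in the deposited log expression table of 6933 genes, which does not list Trib3. They were measured in single cells of tumours that the 4T1 mouse mammary carcinoma line had formed under the skin of Balb/c mice, taken on day 10. Digestion lasted 1 h and used a protease of Bacillus licheniformis. The 4 groups were 37C with actinomycin D (2 nM, a blocker of transcription, called the inhibitor here), 37C without inhibitor, 4C with inhibitor and 4C without inhibitor. Each group was 1 suspension made from 6 pooled pieces, each of another mouse, and its 2 aliquots, A and B, became 2 libraries. Digestion at 37C was done on an instrument with heaters and digestion at 4C on one without, so temperature and instrument cannot be told apart. All 4 groups also shared red-cell lysis and the removal of debris and dead cells.

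The endoplasmic reticulum (ER) folds secreted and membrane proteins, and the unfolded-protein response adjusts its capacity when folding falls behind. The sensors ATF6 and IRE1 act through the transcription factors cleaved ATF6 and spliced XBP1, which raise chaperones and degradation factors. The sensor PERK phosphorylates eIF2alpha, which slows translation in general and favours that of ATF4. Other kinases that sense amino acid shortage, haem shortage or double-stranded RNA converge on the same step, which is why this arm is called the integrated stress response. Secretory cells and many tumour cells hold high levels of these chaperones. Counts of 3′ ends do not separate spliced from unspliced Xbp1 and do not report ATF4 translation, so only transcript abundance is described.

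The annotated cells of each library held 158314 to 199929 UMIs (unique molecular identifiers, counted molecules) in the 37C libraries and 23212 to 65149 in the 4C libraries. There were 654 annotated cells, of which the deposited annotation called 325 tumour cells, 154 T cells, 109 macrophages and 66 NK cells. Macrophage, T and NK cells carried all of their fixed markers (13 of 13, 12 of 12 and 10 of 10), and NK cells also carried all 12 T-cell markers. Cells annotated as macrophages also carried 5 of 5 mast and basophil markers (498 UMIs, 0.335% of theirs), and T cells 9 of 10 NK markers (324 UMIs, 0.267%), with Ncr1 at 0. Tumour cells carried 5 of 10 epithelial markers, and Epcam, Cdh1, Cldn7, Krt5 and Krt14 were at 0 in them. Pairs of libraries shared 4 to 19 listed barcodes and 0 to 1 annotated barcodes. Since A and B came from the same suspension, all p-values reflect aliquot spread alone, which may be technical.

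Promoters are shown first for the 4 genes that carry the letters of the ER stress response element (ERSE), a sequence known to be bound by NF-Y together with ATF6 or XBP1. The element was searched on both strands as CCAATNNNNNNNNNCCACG in the window from 250 bases before to 50 bases after the RefSeq start (GRCm38.p6). It occurred in 39 of 32851 promoters of all genes (0.119%). Capitals mark the match, and each sequence runs 5′ to 3′ on the gene's own strand.
Hspa5: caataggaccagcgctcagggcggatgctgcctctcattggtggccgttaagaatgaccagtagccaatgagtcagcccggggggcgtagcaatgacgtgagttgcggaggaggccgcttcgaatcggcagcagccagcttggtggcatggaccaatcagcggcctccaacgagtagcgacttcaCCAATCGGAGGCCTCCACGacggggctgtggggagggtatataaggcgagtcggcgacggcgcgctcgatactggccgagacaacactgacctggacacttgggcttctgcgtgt
Hsp90b1: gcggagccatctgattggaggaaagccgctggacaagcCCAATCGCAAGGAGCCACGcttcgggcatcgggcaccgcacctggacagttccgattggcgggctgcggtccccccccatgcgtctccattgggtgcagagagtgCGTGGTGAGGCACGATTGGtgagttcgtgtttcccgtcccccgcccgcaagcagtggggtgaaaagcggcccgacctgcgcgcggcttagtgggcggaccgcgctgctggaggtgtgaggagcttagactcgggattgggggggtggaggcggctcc
Calr: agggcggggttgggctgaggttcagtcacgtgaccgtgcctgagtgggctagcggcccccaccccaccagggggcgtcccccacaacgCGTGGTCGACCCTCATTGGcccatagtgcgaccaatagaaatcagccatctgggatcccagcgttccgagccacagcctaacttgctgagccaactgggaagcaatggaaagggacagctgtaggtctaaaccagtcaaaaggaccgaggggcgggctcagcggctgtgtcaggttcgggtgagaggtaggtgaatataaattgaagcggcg
Pdia6: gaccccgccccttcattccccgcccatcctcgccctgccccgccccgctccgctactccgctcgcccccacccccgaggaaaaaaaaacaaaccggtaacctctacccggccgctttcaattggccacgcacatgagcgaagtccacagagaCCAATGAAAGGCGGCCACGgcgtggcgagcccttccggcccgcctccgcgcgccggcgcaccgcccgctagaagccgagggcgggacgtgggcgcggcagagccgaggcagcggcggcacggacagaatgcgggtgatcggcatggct

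The Hspa5 window is chr2:34771840-34772139 on the plus strand, and its match begins 65 bases before the start. The Pdia6 window is chr12:17266339-17266638 on the plus strand, with the match 98 bases before the start. The Hsp90b1 window, chr10:86705395-86705694 on the minus strand, holds 2 matches, 212 bases before the start on the gene's strand and 107 bases before it on the opposite strand. The Calr window, chr8:84846882-84847181 on the minus strand, holds 1 match on the opposite strand, 162 bases before the start. Thus 4 of the 5 chaperone and disulfide isomerase genes held an exact match to the letters, and Pdia3 did not. Near matches were not searched.

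Herpud1 carried a second form of the element, searched as ATTGGNCCACG, 52 bases before its start, and this form occurred in 12 promoters of all genes (0.0365%). The core of the C/EBP-ATF response element, searched as TGATGNAA, was found on the opposite strand in Trib3, 14 bases after the start, and in Herpud1, 112 bases before it; 3.97% of all promoters held it. The core TGACGTGG of the XBP1-preferred element was in 0 of the 10 windows and in 0.676% of all promoters. None of these matches was tested for binding.

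Across cell types, Hspa5 stood highest in tumour cells. Hspa5 encodes BiP, the ER form of the HSP70 chaperone, which also holds the stress sensors inactive. Levels are given as CPM, UMIs per 1000000 UMIs of the cells of that type, over libraries with at least 10 cells of the type. Hspa5 averaged 1271 ± 448 CPM in tumour cells (SD, n = 8), 934 ± 378 in NK cells (n = 3), 784 ± 253 in macrophages (n = 4, all at 37C) and 448 ± 255 in T cells (n = 8). Within libraries, tumour cells were above T cells in 8 of 8 and above macrophages in 4 of 4, and macrophages were above T cells in 4 of 4. Tumour cells and NK cells did not differ beyond their spread, with tumour cells higher in 2 of 3 libraries. No test is given between cell types, since the way the types were assigned is not stated and may have used these genes.

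Calr had a different order. Calr encodes calreticulin, a lectin chaperone that binds calcium and folds glycoproteins. It averaged 577 ± 103 CPM in tumour cells, 1749 ± 256 in macrophages, 1067 ± 301 in NK cells and 948 ± 349 in T cells. Tumour cells were below T cells in 8 of 8 libraries, below macrophages in 4 of 4 and below NK cells in 3 of 3. NK cells and T cells overlapped. The part of the mast and basophil markers in the macrophage level was not tested. On the scale of the deposited log table, where each cell counts equally, tumour cells were above T cells for Calr in 6 of 8 libraries and above NK cells in 1 of 3, so both orders differ between the scales, while macrophages stayed above tumour cells in 4 of 4.

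Pdia6, a disulfide isomerase that also attenuates ER stress sensors, averaged 462 ± 189 CPM in tumour cells and 549 ± 97.0 in macrophages, against 213 ± 130 in NK cells and 209 ± 123 in T cells. Tumour cells were above T cells in 8 of 8 libraries and above NK cells in 3 of 3. Macrophages were above tumour cells in 4 of 4 libraries by CPM and below them in 4 of 4 on the deposited log scale, so their order is not settled. Tumour cells and T cells were also compared by UMIs pooled over the 37C libraries alone, with 10 CPM added to each level. This was done for the 710 genes with at least 200 UMIs over all annotated cells. Tumour cells gave 64.4% of all UMIs of annotated cells, so this filter can favour genes high in them. Of the 710 genes, 61.0% were higher in tumour cells, with a median log2 difference of 0.24. Only 5 of the 10 members passed the filter, and 3 of them were higher in tumour cells. The log2 difference of tumour cells over T cells at 37C was 1.18 for Hspa5, 0.87 for Pdia6, 0.13 for Hsp90b1, -0.25 for Atf4 and -0.99 for Calr. The means over all 8 libraries had the opposite order for Hsp90b1 (338 CPM in tumour cells, 357 in T cells). They also did for Atf4 (226 CPM in tumour cells, 218 in T cells), and the other genes named kept their order.

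**Figure D1:**
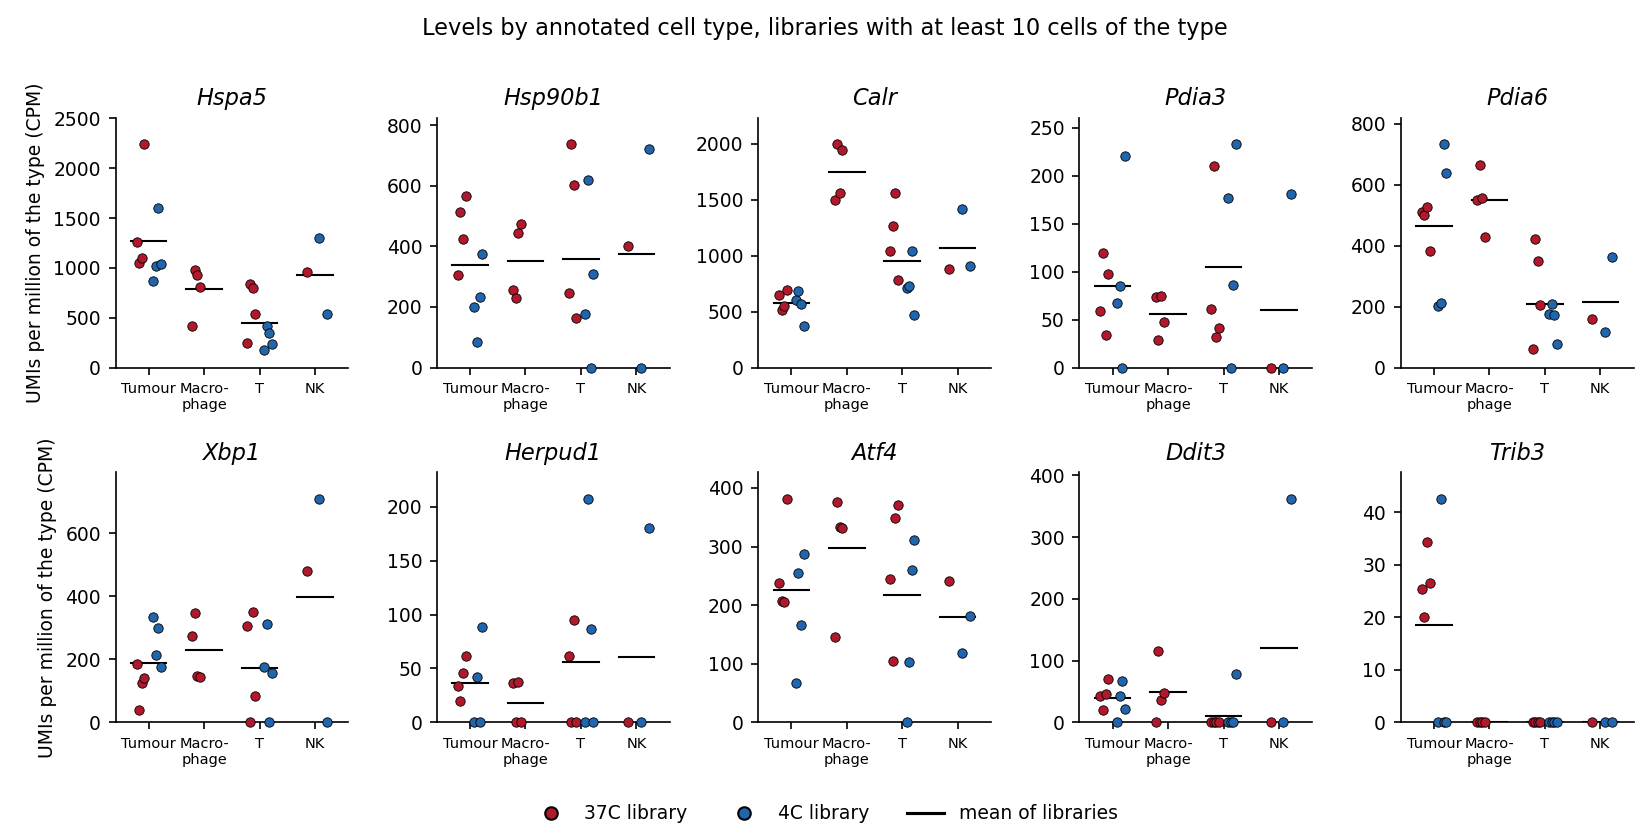
Level of each gene by annotated cell type, in UMIs per 1000000 UMIs of that type; each point is 1 library with at least 10 cells of the type, red at 37C and blue at 4C, and the bar is the mean of the libraries. Hspa5 is highest in tumour cells (mean 1271 CPM), Calr is highest in macrophages (1749 CPM), and Trib3 is above 0 in tumour cells only.

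For the remaining chaperones and the transcription factors, the means of the types lay within their spread. Hsp90b1, the ER form of HSP90, averaged 338 ± 163 CPM in tumour cells, 352 ± 126 in macrophages, 375 ± 362 in NK cells and 357 ± 264 in T cells. Pdia3, the disulfide isomerase that partners calreticulin and calnexin, averaged 85.4 ± 66.0 CPM in tumour cells and 105 ± 88.9 in T cells. By mean and SD neither gene separated tumour cells from another type. Within libraries, tumour cells were above NK cells for Pdia3 in 3 of 3 libraries on both scales, with 1 NK UMI in those libraries. Tumour cells were above macrophages for Hsp90b1 in 3 of 4 libraries by CPM and in 4 of 4 on the deposited log scale.

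Atf4, the transcription factor of the integrated stress response, averaged 226 ± 91.2 CPM in tumour cells, 297 ± 102 in macrophages, 180 ± 61.4 in NK cells and 218 ± 134 in T cells. The NK value rested on 1 to 3 UMIs in each of 3 libraries. With a minimum of 5 cells the NK mean was 336 CPM, the highest of the 4 types, so the place of NK cells in the order is not settled. Xbp1, the transcription factor spliced by IRE1, averaged 190 ± 94.4 CPM in tumour cells, 228 ± 99.8 in macrophages, 396 ± 361 in NK cells and 173 ± 140 in T cells. Over all libraries the ranges of both overlapped. Within the 4 libraries at 37C, Xbp1 in tumour cells was below macrophages in 4 of 4 by CPM and in 3 of 4 on the deposited log scale. Pooled at 37C, Xbp1 was at 117 CPM in tumour cells (exact Poisson 95% interval 88.4 to 153) and at 248 CPM in macrophages (171 to 346). These intervals cover counting error only. The 37C libraries ranged from 40.0 to 186 CPM in tumour cells and from 142 to 347 CPM in macrophages, which overlap. Xbp1 is also abundant in plasma cells, and 5 of 8 plasma-cell markers had UMIs in the cells annotated as T cells (96 UMIs, 0.0791% of their total), with Jchain, Derl3 and Ighg1 at 0; their part in the Xbp1 level was not tested.

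Trib3, a pseudokinase induced by ATF4 and CHOP, had 13 UMIs in annotated cells, and all 13 were in tumour cells. Its level in tumour cells pooled over libraries was 22.3 CPM (exact Poisson 95% interval 11.9 to 38.2). A count of 0 allowed up to 20.2 CPM in macrophages, 24.7 CPM in T cells and 57.9 CPM in NK cells (3 counts of each total), so lower levels were not detectable there. These intervals and limits cover counting error only.

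Ddit3, which encodes CHOP, had 24 of its 34 UMIs in tumour cells (70.6%), and tumour cells gave 64.4% of all UMIs of annotated cells. Macrophages had 7 Ddit3 UMIs, NK cells 2 and T cells 1. Herpud1, a membrane protein of ER-associated degradation, had 23 of 36 UMIs in tumour cells (63.9%), close to the share of UMIs that tumour cells gave. At this depth neither gene could be ordered across types.

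Digestion temperature was compared over the annotated cells of whole libraries, and such a sum mixes the number of cells of a type with the RNA per cell. Each 37C library held 17 to 33 macrophages and 10 to 28 T cells. Each 4C library held 1 to 8 macrophages and 16 to 28 T cells. The median UMIs of an annotated cell were 1014 to 1618 at 37C, against 558 to 618.5 at 4C. How much each of these differences acted on the estimates was not tested. None of the 7 genes that passed the low-count filter was called at an adjusted p under 0.05 in edgeR's quasi-likelihood test of 37C over 4C, in which 3.98% of the 3391 genes tested were called. Herpud1, Ddit3 and Trib3 did not pass the filter. At an unadjusted p under 0.05 there were 2 members, Hsp90b1 and Pdia6, among 555 genes, and DESeq2's Wald test also called 0 members. Of the 7 estimates, 5 were positive with a median of 0.42 on the log2 scale, beside 52.5% positive and a median of 0.04 over all genes tested.

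Hsp90b1 had the largest estimate. It was at 295 and 470 CPM at 37C with inhibitor and at 461 and 498 CPM at 37C without inhibitor, against 215 and 180 CPM at 4C with inhibitor and 152 and 384 CPM at 4C without inhibitor. The 37C libraries lay above the 4C libraries except for 4C without inhibitor B, which lay above 1 of them. The log2 fold change was 0.94 ± 0.31 (SE), with an adjusted p of 0.0988 in edgeR. It was called when 37C with inhibitor A was left out (1.11, adjusted p = 0.0273 in edgeR) and when 4C without inhibitor B was left out (1.503, adjusted p = 0.00219 in edgeR), so the call turned on single libraries.

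Hspa5 was at 915 and 1022 CPM at 37C with inhibitor and at 998 and 1762 CPM at 37C without inhibitor, against 689 and 947 CPM at 4C with inhibitor and 1138 and 814 CPM at 4C without inhibitor. The groups overlapped, and the B library at 37C without inhibitor stood apart from the other 37C libraries. The log2 fold change was 0.42 ± 0.22, with an adjusted p of 0.358 in edgeR. Hspa5 therefore had a positive estimate that was not larger than the aliquot spread after adjustment.

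Calr averaged 893 ± 69.9 CPM at 37C and 739 ± 207 CPM at 4C (SD, n = 4 each), with a log2 fold change of 0.36 ± 0.23 and an adjusted p of 0.464 in edgeR. The library at 4C without inhibitor B was at 430 CPM, and every other library was at 812 CPM or more. Pdia3 averaged 73.6 ± 28.6 CPM at 37C and 91.3 ± 86.9 CPM at 4C, with a log2 fold change of -0.20 ± 0.60 that rested on few UMIs (73 in all).

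Pdia6 averaged 453 ± 74.7 CPM at 37C and 348 ± 200 CPM at 4C, with a log2 fold change of 0.62 ± 0.27 and an adjusted p of 0.230 in edgeR. Its 4C libraries fell into separate ranges by inhibitor, which is described further on. The 5 chaperones and isomerases together made up 4 of the 5 positive estimates.

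Among the transcription factors, Xbp1 was at 215 and 92.0 CPM at 37C with inhibitor and at 202 and 152 CPM at 37C without inhibitor, against 258 and 316 CPM at 4C with inhibitor and 247 and 153 CPM at 4C without inhibitor. Xbp1 leaned lower at 37C, with a log2 fold change of -0.48 ± 0.33 and an adjusted p of 0.519 in edgeR. Atf4 averaged 275 ± 61.0 CPM at 37C and 212 ± 91.5 CPM at 4C, with a log2 fold change of 0.42 ± 0.30 and an adjusted p of 0.535 in edgeR. Neither passed the test.

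**Figure D2:**
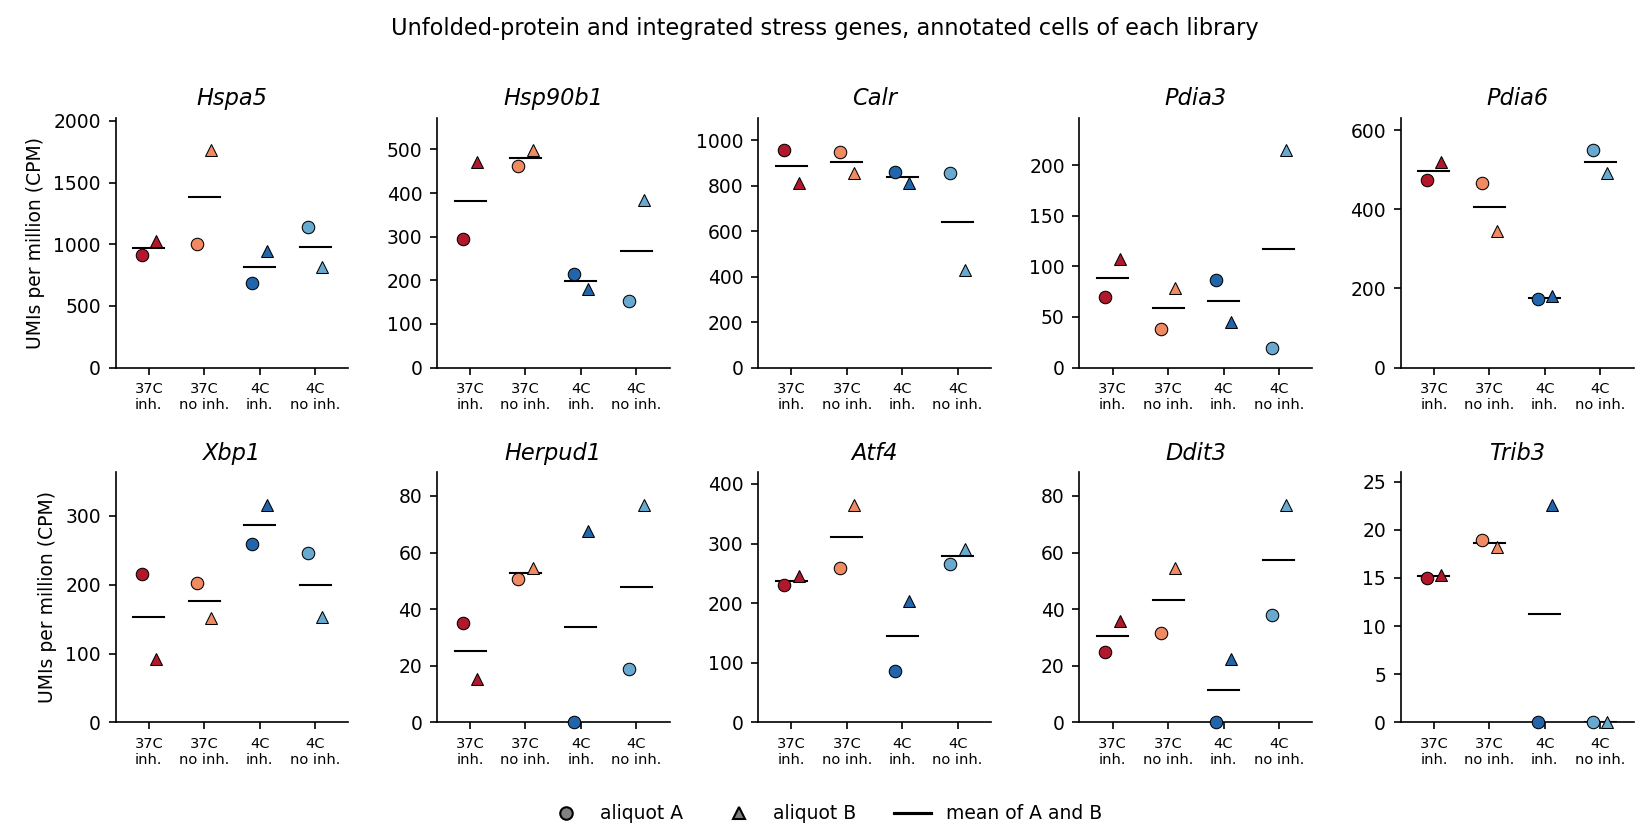
Level of each gene in the annotated cells of the 8 libraries, in UMIs per 1000000 UMIs, by group from 37C with inhibitor to 4C without inhibitor; each point is an aliquot, A or B. Hsp90b1 lies at 295 to 498 CPM in the 37C libraries and at 152 to 384 CPM in the 4C libraries, and Pdia6 is lowest in the 2 libraries at 4C with inhibitor.

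The 10 genes together took 0.323% to 0.419% of the UMIs of annotated cells at 37C and 0.237% to 0.328% at 4C, so the summed level overlapped between temperatures. Macrophage markers took 0.249% to 1.07% of the UMIs of annotated cells at 37C and 0.0586% to 0.205% at 4C, and 11 of the 11 tested were called higher at 37C. T-cell markers took 0.0874% to 0.323% at 37C and 0.245% to 0.467% at 4C, and 3 of the 12 tested were called lower at 37C. The part of this shift in the estimates above was not tested.

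Within tumour cells, 6 of the 10 genes could be tested, and 0 were called for temperature, with 1.42% of the 1756 genes tested called. At an unadjusted p under 0.05 there were 2 members among 230 genes, and DESeq2's Wald test called 0 members. Hsp90b1 again had the largest estimate, 1.17 ± 0.37 on the log2 scale with an adjusted p of 0.0892 in edgeR. It was called when 37C without inhibitor A (adjusted p = 0.0454), 37C with inhibitor A (adjusted p = 0.0499) or 4C without inhibitor B (adjusted p = 0.0218) was left out, all in edgeR. Its level in tumour cells was 305 and 513 CPM at 37C with inhibitor and 423 and 567 CPM at 37C without inhibitor, against 201 and 85.0 CPM at 4C with inhibitor and 233 and 375 CPM at 4C without inhibitor. The levels at 4C with inhibitor rested on 3 and 2 UMIs.

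Xbp1 in tumour cells was at 186 and 40.0 CPM at 37C with inhibitor and at 126 and 142 CPM at 37C without inhibitor, against 334 and 212 CPM at 4C with inhibitor and 299 and 176 CPM at 4C without inhibitor. The 37C libraries lay below the 4C libraries except for 37C with inhibitor A, which lay above 1 of them. The log2 fold change was -1.0 ± 0.45, with an adjusted p of 0.315 in edgeR. The estimates for Hspa5, Pdia6, Atf4 and Calr in tumour cells were 0.34, 0.35, 0.32 and 0.15, and none was called. The tumour cells held macrophage markers at 0.00915% to 0.050% of their UMIs in 37C libraries and 0.00425% to 0.0198% in 4C libraries. They held T-cell markers at 0.00114% to 0.0040% in 37C libraries and 0.00425% to 0.0201% in 4C libraries, which did not overlap. The part of these markers in the estimates was not tested.

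In T cells Calr alone passed the filter, at 0.65 ± 0.37 with an adjusted p of 0.312 in edgeR. No member was called there, with 9.57% of the 230 genes tested called and 0 members at an unadjusted p under 0.05, and DESeq2's Wald test called 0. Macrophages fell under the 10-cell minimum in every 4C library, and NK cells in libraries of both temperatures, so neither type was tested.

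**Figure D3:**
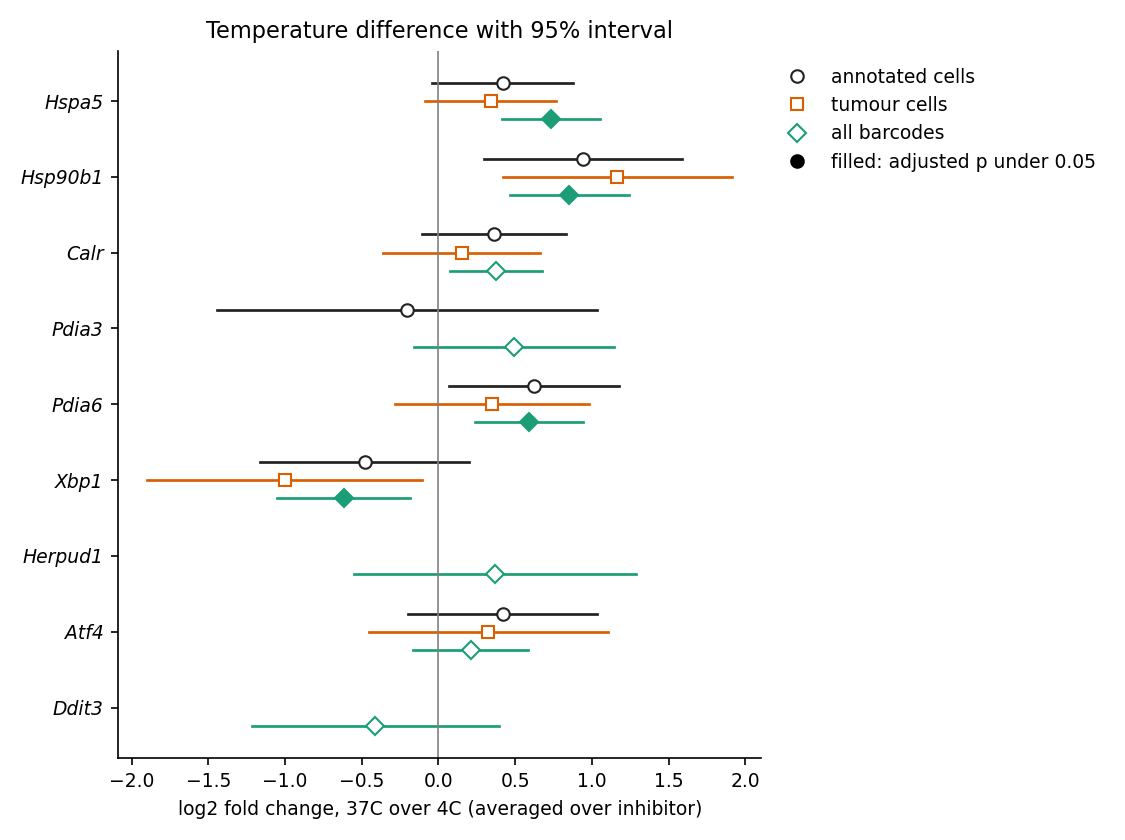
Log2 fold change of 37C over 4C, averaged over inhibitor, with its 95% interval, for each gene that could be tested in annotated cells, in tumour cells and in all barcodes. Hsp90b1 is positive in all 3 (0.94, 1.17 and 0.85) and Xbp1 is negative in all 3 (-0.48, -1.0 and -0.62); calls were made in all barcodes only.

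Summing every listed barcode, annotated or not, gave 433245 to 801510 UMIs per 37C library and 55698 to 186002 per 4C library, and 9 of the 10 genes passed the filter. In these sums 4 of the 9 were called for temperature, where 17.2% of the 7515 genes tested were called. Hspa5, Hsp90b1 and Pdia6 were higher at 37C, and Xbp1 was lower. This fit was one of the listed alternatives, and most of its barcodes carry no cell type.

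Hspa5 was at 1105 and 984 CPM at 37C with inhibitor and at 986 and 1250 CPM at 37C without inhibitor, against 503 and 787 CPM at 4C with inhibitor and 833 and 661 CPM at 4C without inhibitor. Every 37C library lay above every 4C library. The log2 fold change was 0.73 ± 0.16, with an adjusted p of 0.00102 in edgeR.

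Hsp90b1 was at 329 and 372 CPM at 37C with inhibitor and at 369 and 349 CPM at 37C without inhibitor, against 197 and 172 CPM at 4C with inhibitor and 208 and 274 CPM at 4C without inhibitor. The temperatures did not overlap for this gene either. The log2 fold change was 0.85 ± 0.19, with an adjusted p of 0.00165 in edgeR.

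Xbp1 was at 177 and 101 CPM at 37C with inhibitor and at 166 and 152 CPM at 37C without inhibitor, against 251.4 and 291 CPM at 4C with inhibitor and 262 and 194 CPM at 4C without inhibitor. All 37C libraries lay below all 4C libraries. The log2 fold change was -0.62 ± 0.21, with an adjusted p of 0.0417 in edgeR. In DESeq2's Wald test, tried after seeing the data, Xbp1 was not called (adjusted p = 0.127).

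Pdia6 was at 494 and 491 CPM at 37C with inhibitor and at 434 and 389 CPM at 37C without inhibitor, against 269 and 280 CPM at 4C with inhibitor and 432 and 333 CPM at 4C without inhibitor. The temperatures overlapped in 1 library, 4C without inhibitor A. The log2 fold change was 0.59 ± 0.17, with an adjusted p of 0.0166 in edgeR.

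The other 5 tested genes were not called in the sums of all barcodes over the 8 libraries. Calr had a log2 fold change of 0.37 ± 0.15 (adjusted p = 0.0787 in edgeR), and the estimates were 0.49 for Pdia3, 0.37 for Herpud1, 0.21 for Atf4 and -0.41 for Ddit3. The calls of Hspa5 and Hsp90b1 held when each of the 8 libraries was left out in turn and when only barcodes without annotation were summed, both tried after seeing the data. Pdia6 lost its call without the A library at 4C with inhibitor (adjusted p = 0.0564) or without the B library at 4C without inhibitor (adjusted p = 0.0590). Xbp1 lost its call in 5 of the 8 leave-outs (adjusted p 0.0749 to 0.337), which were the B libraries at 37C with and without inhibitor, both libraries at 4C with inhibitor, and A at 4C without inhibitor. The count was 2 without the A library at 4C with inhibitor. Calls were also gained, of Calr (0.48, adjusted p = 0.0404) without A at 4C without inhibitor and of Pdia3 (1.13, adjusted p = 0.0436) without B at 4C without inhibitor. Macrophage markers took 0.254% to 0.660% of all UMIs at 37C and 0.0898% to 0.145% at 4C, and T-cell markers 0.0849% to 0.198% at 37C and 0.316% to 0.469% at 4C. Tumour epithelial markers took 0.228% to 0.305% of all UMIs in 37C libraries and 0.176% to 0.238% in 4C libraries, which overlap. The part of these markers in the calls was not tested.

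The inhibitor groups ask whether the temperature difference is also present with actinomycin D. Whether transcription was blocked was not measured. In annotated cells with inhibitor, 0 of 7 members were called for 37C over 4C, with 1.8% of genes called, and the unadjusted p was under 0.05 for Pdia6 and Hsp90b1 among 463 genes. Without inhibitor 0 of 7 were called, with 1.06% of genes called and 0 members among the 340 genes at an unadjusted p under 0.05. DESeq2's Wald test called 0 members in both. The medians of the 7 estimates were 0.66 with inhibitor and 0.17 without it, beside 0.07 with inhibitor and -0.01 without it over all genes tested.

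Pdia6 separated most between the inhibitor settings. It was at 475 and 521 CPM at 37C with inhibitor and at 467 and 346 CPM at 37C without inhibitor, against 172 and 180 CPM at 4C with inhibitor and 550 and 491 CPM at 4C without inhibitor. The 2 libraries at 4C with inhibitor were the lowest of the 8, and they rested on 4 and 8 UMIs. With inhibitor the log2 fold change of 37C over 4C was 1.58 ± 0.42, with an adjusted p of 0.0515 in edgeR, and without inhibitor it was -0.34 ± 0.32, with an adjusted p of 0.790. The estimate with inhibitor was 1.53 to 1.89 when each of the 8 libraries was left out in turn. The 4 libraries without inhibitor are not compared in this contrast and act on it only through the shared spread, scaling and filter. Calls gained when 1 of them was left out came without a change in the libraries compared.

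The difference between these temperature effects was tested as an interaction. It was 1.92 ± 0.53 for Pdia6, with an adjusted p of 0.370 in edgeR, and 0 members were called where 0% of genes were called. Pdia6 was the only member with an unadjusted p under 0.05, among 250 genes, and DESeq2's Wald test called 0 members. The interaction estimates for Pdia3, Atf4, Hsp90b1, Hspa5, Calr and Xbp1 were 1.73, 0.50, 0.27, -0.21, -0.33 and -0.69. In tumour cells the interaction of Pdia6 was 1.93 ± 0.61 with an adjusted p of 0.441 in edgeR, and its tumour-cell levels at 4C were 201 and 212 CPM with inhibitor against 732 and 639 CPM without it. The levels with inhibitor rested on 3 and 5 UMIs, and these cells are part of the annotated cells above. In all barcodes the interaction of Pdia6 was 0.76 ± 0.35 (adjusted p = 0.410 in edgeR), and again no member was called, with 1.16% of genes called and 1 member at an unadjusted p under 0.05.

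In all barcodes with inhibitor, 3 of 9 members were called higher at 37C, with 10.6% of genes called. These were Hspa5 (0.78 ± 0.23, adjusted p = 0.0250), Hsp90b1 (1.07 ± 0.30, adjusted p = 0.0169) and Pdia6 (0.97 ± 0.26, adjusted p = 0.0141), all from edgeR. The count was 0 when A at 4C with inhibitor was left out, 1 when B at 4C with inhibitor was left out and 1 in DESeq2's Wald test. Hspa5 also lost its call without A at 37C with inhibitor (adjusted p = 0.0993), and Hsp90b1 without B at 37C with inhibitor (adjusted p = 0.0698). Pdia6 with inhibitor was at 0.60 and not called (adjusted p = 0.212 in edgeR) when only barcodes without annotation were summed. Without inhibitor 0 of 9 were called, with 4.64% of genes called and 3 members at an unadjusted p under 0.05, and Hspa5 was at 0.68 ± 0.21 with an adjusted p of 0.0554 in edgeR. The Hspa5 interaction in all barcodes was 0.10 ± 0.32, so the temperature effects with and without inhibitor were not shown to differ for this gene.

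**Figure D4:**
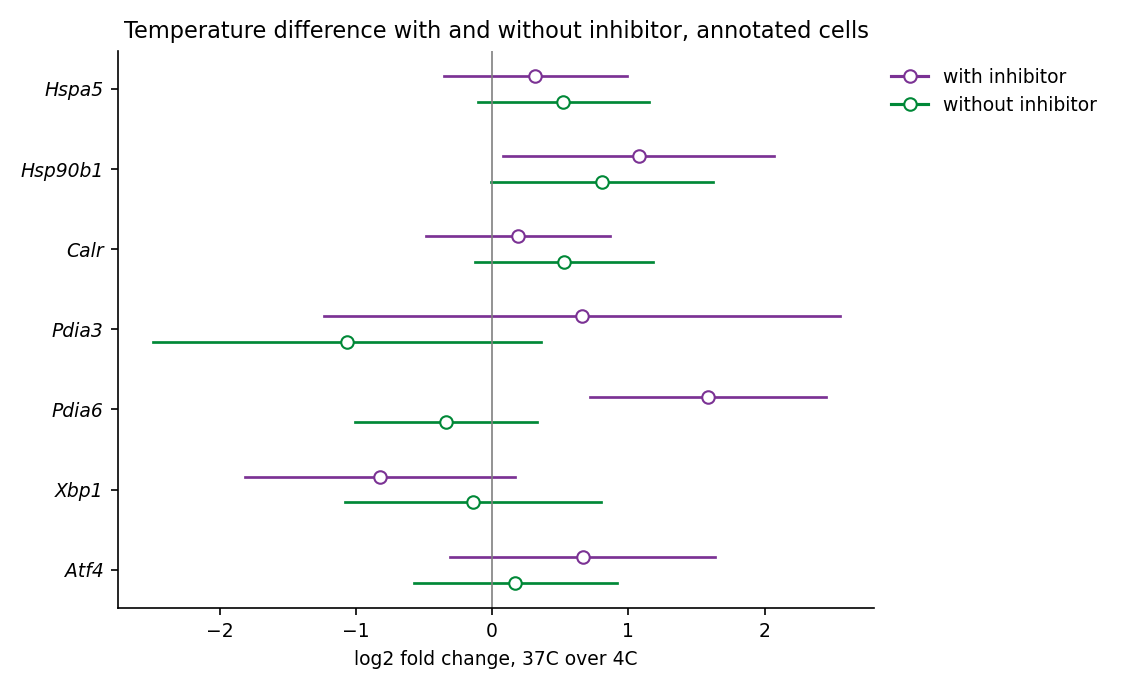
Log2 fold change of 37C over 4C in annotated cells with inhibitor (purple) and without inhibitor (green), with 95% intervals, for the 7 genes tested. Pdia6 is the gene whose 2 intervals do not meet (1.58 with inhibitor and -0.34 without); its interaction had an adjusted p of 0.370.

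The inhibitor itself was then compared within each temperature. At 37C, 0 of 7 members were called for inhibitor over no inhibitor, with 1.21% of genes called and 0 members among the 286 genes at an unadjusted p under 0.05, and DESeq2's Wald test called 0 members. Hspa5 was at 915 and 1022 CPM with inhibitor against 998 and 1762 CPM without it, a log2 fold change of -0.49 ± 0.29 with an adjusted p of 0.750 in edgeR. Atf4 was at 230 and 245 CPM with inhibitor against 259 and 365 CPM without it, a log2 fold change of -0.37 ± 0.31 with an adjusted p of 0.890 in edgeR. The 37C libraries held 11 and 10 T cells with inhibitor against 28 and 23 without it. They held 33 and 24 macrophages with inhibitor against 18 and 17 without it. In this contrast 3 of 11 macrophage markers tested were called higher and 3 of 12 T-cell markers lower. The part of this shift in the inhibitor estimates was not tested.

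The estimates at 37C for Hsp90b1, Xbp1, Calr, Pdia6 and Pdia3 were -0.30, -0.17, 0.00, 0.32 and 0.61. In tumour cells the Hspa5 estimate was -0.58 ± 0.24, with an adjusted p of 0.611 in edgeR. In all barcodes 0 of 9 members were called, with 3.41% of genes called, and Herpud1 was the only one at an unadjusted p under 0.05. Herpud1 was at 29.9 and 25.8 CPM with inhibitor against 62.3 and 59.2 CPM without it in those sums, with a log2 fold change of -1.06 ± 0.37 and an adjusted p of 0.126 in edgeR.

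At 4C, 0 of 7 members were called, with 0% of genes called, and DESeq2's Wald test called 0 members. Pdia6 alone had an unadjusted p under 0.05, among 172 genes, with a log2 fold change of -1.61 ± 0.44 and an adjusted p of 0.901 in edgeR. Pdia3 had an estimate of -1.12 ± 0.96. For Xbp1, Calr, Hspa5 and Hsp90b1 the estimates were 0.52, 0.33, -0.28 and -0.57. Atf4 was at 86.2 and 203 CPM with inhibitor against 266 and 292 CPM without it, a log2 fold change of -0.86 ± 0.50. In all barcodes 0 of 9 were called, with 0.0266% of genes called and 0 members at an unadjusted p under 0.05, and Pdia6 was at -0.45 ± 0.29.

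The 3 rarest genes were compared by pooled counts, which cover counting error only. Herpud1 had 27 UMIs at 37C and 9 at 4C, or 37.6 CPM at 37C and 48.5 CPM at 4C, a ratio of 0.774 (95% interval 0.353 to 1.87). Ddit3 had 26 UMIs at 37C and 8 at 4C, or 36.2 CPM at 37C and 43.1 CPM at 4C, a ratio of 0.839 (0.369 to 2.14). Neither differed beyond counting error.

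Trib3 had 12 UMIs at 37C and 1 at 4C, or 16.7 CPM at 37C and 5.39 CPM at 4C, a ratio of 3.10 with an interval of 0.458 to 132. All 4 libraries at 37C held it, at 15.0 and 15.3 CPM with inhibitor and 19.0 and 18.2 CPM without it, against 0 and 22.6 CPM at 4C with inhibitor and 0 in both libraries at 4C without inhibitor. In all barcodes it was at 24.95 and 35.4 CPM at 37C with inhibitor and at 16.2 and 19.7 CPM at 37C without inhibitor, against 18.0 and 10.8 CPM at 4C with inhibitor and 0 and 5.38 CPM at 4C without inhibitor. The 37C and 4C libraries overlapped through 4C with inhibitor A, and the gene was too rare for the fit.

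Other genes of the same pathways, from lists of known components, were set beside the members. The background for temperature in annotated cells was 3.98% of all genes called and 52.5% of estimates positive. Against it, 0 of the 13 tested of 21 other ER folding genes were called, and 10 of the 13 estimates were positive with a median of 0.24. Of 24 genes of translocation into the ER and signal peptide removal, 19 were tested and 0 called, with 14 positive and a median of 0.32. Of 16 genes of ER-associated degradation, 8 were tested and 0 called, with 2 positive and a median of -0.14.

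Among the other ER folding genes, P4hb, the beta subunit of prolyl hydroxylase, had a log2 fold change of 0.62 ± 0.23 (adjusted p = 0.147 in edgeR), and Ppib, a prolyl isomerase of the ER, had 0.51 ± 0.22 (adjusted p = 0.251 in edgeR). The largest estimate of that list was negative, -1.32 ± 0.67 for Sdf2l1 (adjusted p = 0.334 in edgeR), and Ero1l, an oxidase that supplies disulfide bonds, was at -0.82 ± 0.56 (adjusted p = 0.519 in edgeR). Of 17 stress sensors, eIF2alpha kinases and phosphatase genes, 6 were tested and 0 called, with 2 positive and a median of -0.06. The medians of the folding and translocation lists were above that of all genes tested (0.04), and those of the degradation and sensor lists were below it.

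Of 40 targets of ATF4 and CHOP, 18 were tested and 1 was called for temperature, Atf3, a transcription factor that is also an early response gene. Atf3 had a log2 fold change of 2.90 ± 0.61 (adjusted p = 0.00819 in edgeR), and the list had 10 positive estimates with a median of 0.10. At 37C with inhibitor against 37C without it, Atf3 was again the only one of 18 called, at -1.70 ± 0.40 (adjusted p = 0.0348 in edgeR). In that contrast 1.21% of all genes were called and 51.4% of estimates were positive. Of the 18 estimates 1 was positive, and the list median was -0.44 beside 0.01 over all genes tested. The part of the shift in cell types between these libraries was not tested.

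**Figure D5:**
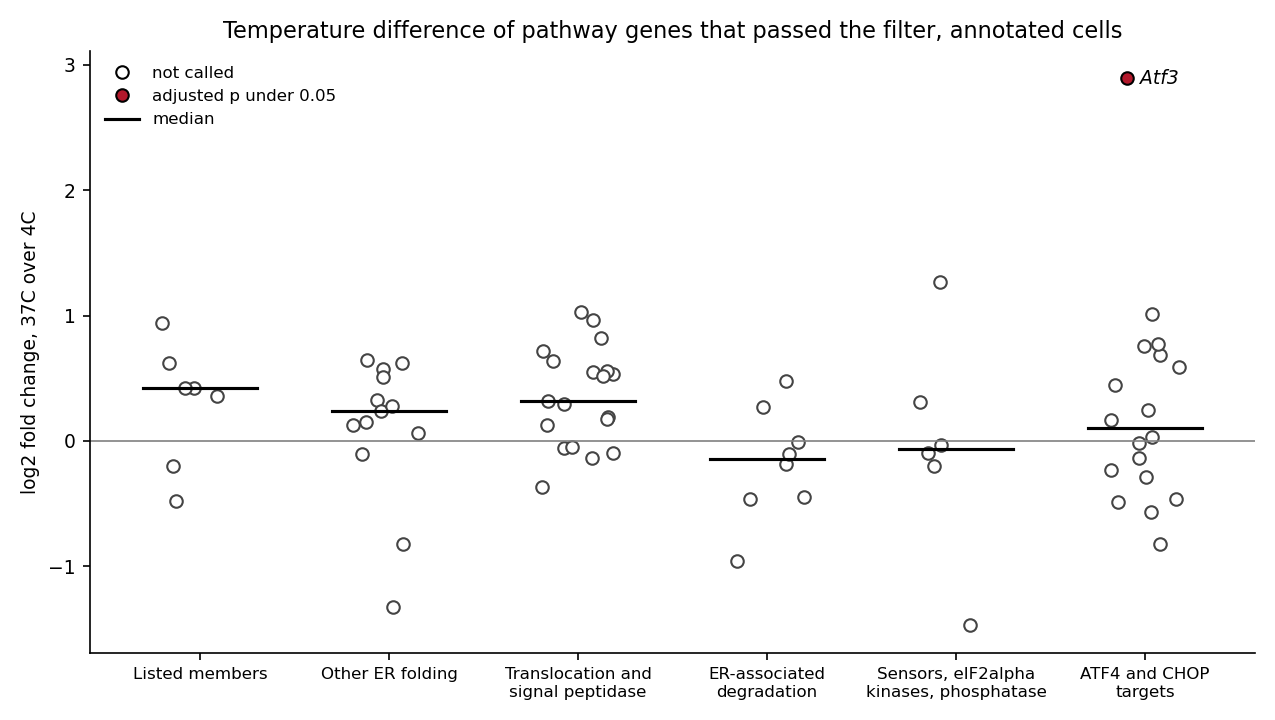
Log2 fold change of 37C over 4C in annotated cells for the tested genes of each pathway list and for the members, 1 point a gene, with the list median as a bar and called genes filled. Medians are 0.24 for other ER folding genes, 0.32 for translocation and -0.14 for degradation, and Atf3 among the ATF4 and CHOP targets is the single called gene.

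Another 33 genes held the ERSE letters in the same window, and 2 of them in the fixed lists could be tested. Canx, the membrane-bound partner of calreticulin, had a log2 fold change of 0.33 ± 0.25 for temperature, and Dnajc3, an ER co-chaperone that also restrains PERK, had 0.58 ± 0.49. Neither was called.

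Genes with the pattern most like that of Hspa5 were looked for over 23 sums of library and cell type (8 of tumour cells, 8 of T cells, 4 of macrophages and 3 of NK cells) and 709 genes with at least 200 UMIs. Pearson's r on log2(CPM + 10) was 0.83 for Ppp1r14b, 0.80 for Eif3l, 0.79 for Anxa1, 0.78 for Tubb4b and 0.77 for Ly6c1. For Atf4 the 5 highest were Gm15772 and Cope (0.84 each), Prkar1a and Cdc37 (0.83 each) and Atp5g3 (0.81). Within the members, r with Hspa5 was 0.59 for Pdia6 (rank 45), 0.40 for Atf4, 0.11 for Hsp90b1 and -0.04 for Calr. These sums share libraries, depth and cell type, so the values are descriptions over dependent points. Some points held 0 UMIs of a member. Hsp90b1 was at 0 in T cells of 4C without inhibitor A and in NK cells of 4C with inhibitor B. Atf4 was at 0 in T cells of 4C with inhibitor A. The weight of such points in r was not tested.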

How the data were processed

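Per the labels' protocols, 3' libraries were made with the SureCell kit on the ddSEQ system. The deposited library tables hold raw counts of UMIs per gene and barcode, with 2990 to 3000 barcodes a library. In the deposited expression table of 654 cells, values are natural logs of counts per 10000 with 1 added; 99.9864% of its values above 0 were proportional to the raw counts within 0.001. The submitters' processing notes name the build GRCm38, the aligner STAR 2.7.1a, the counter featureCounts 1.6.0 and also Seurat, UMI-tools and SAMtools. Cell filters, doublet handling and the way types were named are not stated there. Cell types come from the deposited annotation. Symbols came from GENCODE vM21 (17520 of 17580 identifiers, 12505 with the same version), promoters and their build from RefSeq.

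For each library, UMIs were added up over its annotated cells, over the cells of a type with at least 10 cells in every library, or over all barcodes. Sums were filtered (filterByExpr), scaled (TMM) and fitted as 4 groups in edgeR 4.0.16 (glmQLFit and glmQLFTest, two-sided; R 4.3.3). P-values were adjusted by Benjamini-Hochberg over all genes of a fit, and genes under 0.05 were called. Temperature was averaged over inhibitor, and also compared with and without it; the inhibitor was compared within each temperature, and the interaction is the temperature difference with inhibitor minus that without it. Printed CPM are UMIs per 1000000 of all UMIs of the cells summed, without TMM. Ratios of rare genes have exact 95% counting intervals, and a count of 0 was bounded by 3 counts. Steps were tested on simulated data.

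The members, the pathway lists and the tests were chosen with earlier results of these data known. Not every member is named in every comparison. Members left unnamed in the main edgeR fits of annotated cells, tumour cells, T cells and all barcodes were not called there. Of the pathway lists, called genes are named, and the genes named without a call were chosen after their values were seen. For Hspa5 and Atf4 the 5 genes with the highest correlation are named. Alternatives were DESeq2 1.42.0 (size factors or Wald test), no filter, thinning to the smallest library, summed aliquots, a block on the aliquot letter, all barcodes, other cell minimums and leaving out each library. Alternatives to the all-barcode fits (DESeq2, unannotated barcodes, leaving out each library) were chosen after seeing the data.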

Additional observations from a re-analysis of the deposited data

Results flagged for a closer look

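In the 4 libraries at 37C, Hspa5 in 37C without inhibitor B was at 1762 CPM, far above the other 3, which lay between 915 and 1022 CPM; in the tumour cells of the same library it was at 2240 CPM, against 1046 to 1262 CPM in the others. In the 4 libraries at 4C, Calr in 4C without inhibitor B was at 430 CPM, far below the other 3 at 812 to 862 CPM. Trib3 in 4C with inhibitor B was at 22.6 CPM, which is 1 UMI, with the other 3 libraries at 4C at 0. The distance of an extreme library from the rest was looked at in 20 groups of 4 libraries, and chance picks out about 1 in 20 such groups.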

How the results depend on the processing

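For temperature in annotated cells, the 0 members called became 2 with no filter (Hspa5 0.72 and Hsp90b1 1.24) and 4 in all barcodes, and 0 to 1 when each library was left out; with no filter the median over all genes was 0.53, against 0.04 with the filter, so those estimates are to be read against that shift. For temperature with inhibitor the 0 became 1 with no filter (Pdia6), 3 in all barcodes and 0 to 1 in the leave-outs. Correlations between groups of the deviations of the A and B libraries were -0.032 to 0.361 over 6 pairs of groups and 1146 genes. What the letters share between groups was not tested. With a replicate block the count with inhibitor was 1 (Pdia6 1.57, adjusted p = 0.0447 in edgeR), and the block changed no other count of members. In tumour cells the temperature count was 2 with no filter and 0 to 1 in the leave-outs. In all barcodes the temperature count was 2 to 4 in the leave-outs, and with inhibitor it was 1 in DESeq2's Wald test and 0 to 3 in the leave-outs. Of the other 112 counts recomputed, none moved by more than 1.5 times.

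The following estimates changed sign; none had been called, and the cause was not tested. For temperature, Pdia3 was 0.0835 with no filter, 0.49 in all barcodes and -0.51 to 1.25 in the leave-outs. Without inhibitor, Pdia6 was 0.21 in all barcodes, Xbp1 0.10 with no filter and -0.37 to 0.23 in the leave-outs, Pdia3 -1.82 to 1.69 and Atf4 -0.12 to 0.40 in the leave-outs. With inhibitor, Calr was -0.25 when thinned to the smallest library; in all barcodes Atf4 was -0.33 in barcodes without annotation and -0.021 to 0.14 in the leave-outs, Ddit3 -0.84 to 0.14 and Herpud1 -0.49 to 6.52, the last where the only remaining 4C library with inhibitor held 0 Herpud1 UMIs, so that value is no measure of size. For the inhibitor at 37C, Hsp90b1 was 0.29 when thinned, 0.0099 in all barcodes and -0.68 to 0.0023 in the leave-outs, Calr 0.0072 with no filter and -0.12 to 0.10, Atf4 0.0025 when thinned and Xbp1 -0.90 to 0.30. For the inhibitor at 4C, the leave-outs gave -1.17 to 0.25 for Hsp90b1, -0.15 to 0.76 for Calr and -2.01 to 1.499 for Pdia3. For the interaction, Hspa5 was 0.10 and Atf4 -0.36 in all barcodes, and the leave-outs gave -0.55 to 0.30 for Hspa5, -0.52 to 0.89 for Hsp90b1, -0.74 to 0.16 for Calr and -0.87 to 2.64 for Pdia3.

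The number of genes called for temperature was 135, against 60 in DESeq2's Wald test, 293 with no filter, 30 of 426 genes when thinned, 1290 in all barcodes and 89 with aliquots summed, where 0 members were called. Summed aliquots could be used for temperature only. The depth at 4C limits every value of Herpud1, Ddit3 and Trib3.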
